A study of Rattus norvegicus with 12 samples.

Results

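The myosin heavy chain family was followed here as 10 genes, taken as the rows of the count and FPKM tables whose symbol is Myh6, Myh7, Myh7b, Myh1, Myh2, Myh3, Myh8, Myh9, Myh10 or Myh11. All 10 were found among the 18469 genes of the tables. Each encodes the motor subunit of a class II myosin, and the rule that finds them uses the symbols and no measured value. The family itself was chosen with earlier results of these data known. Of the other class II heavy chain genes, Myh14 was in the tables, and Myh4, Myh13, Myh15 and Myh16 were not analysed here.

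RNA came from neonatal rat ventricular myocytes (NRVMs), heart muscle cells isolated from newborn rats of the Sprague-Dawley (SD) strain and kept in culture. The 12 libraries form 4 groups of 3 replicates, numbered in the labels. The study's methods call the 3 replicates of a group independent, in a description that names another siRNA. Cells in siNeg received a negative control siRNA, and cells in siSlc25a26 received an siRNA against Slc25a26, the carrier that brings S-adenosylmethionine into mitochondria. Both groups were left without phenylephrine (PE), an α1-adrenergic agonist that makes cardiomyocytes grow. Cells in siNeg.PE and siSlc25a26.PE had the same transfections, followed after 12 h by PE for 36 h according to the labels. All 4 groups share the transfection step, and no untransfected library was analysed. The labels name no batch and do not say how many animals gave cells to a culture. The p-values measure the spread between these samples.

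A myosin heavy chain dimerizes into a rod with heads that hydrolyse ATP and pull on actin. In the heart, Myh6 encodes the α heavy chain, with fast ATPase, and Myh7 the β heavy chain, which is slower and uses less energy per unit of force. In rodents the ventricle shifts from Myh7 towards Myh6 after birth under thyroid hormone, and hypertrophic stimuli shift the balance back towards Myh7. Myh1, Myh2, Myh3 and Myh8 are skeletal muscle isoforms, Myh11 is the smooth muscle isoform, and Myh9 and Myh10 are non-muscle isoforms that drive contraction of the cell cortex, adhesion and cytokinesis.

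Myh6, Myh7 and Myh7b also carry a microRNA in an intron, and the 3 microRNAs belong to a small family of regulators of myosin expression. Their mature sequences are shown because they tie the 3 heavy chain loci together. They come from RefSeq, assembly GRCr8, and the capitals mark the seed, bases 2 to 8, with which a microRNA pairs to its targets.
rno-miR-208a-3p, in Myh6: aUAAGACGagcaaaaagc
rno-miR-208b-3p, in Myh7: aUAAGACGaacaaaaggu
rno-miR-499-5p, in Myh7b: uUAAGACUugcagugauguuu
On the minus strand, rno-miR-208a-3p lies at chr15:32395568-32395585 and rno-miR-208b-3p at chr15:32421648-32421665, and rno-miR-499-5p lies on the plus strand at chr3:164570616-164570636. The seeds of rno-miR-208a-3p and rno-miR-208b-3p are identical, and that of rno-miR-499-5p differs from them only in its last base, base 8. The microRNAs themselves were not measured. In the same assembly, Myh6 and Myh7 are neighbours with 0 protein-coding genes between them, and Myh3, Myh2, Myh1, Myh4, Myh8 and Myh13 form a row on chromosome 10 with 0 other protein-coding genes inside it.

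Depth was similar across libraries, with total estimated counts between 24770972 and 28709049. Slc25a26, the targeted gene, was at 31.4 ± 2.0 CPM (counts scaled by library size with TMM factors; mean ± SD, n = 3) in siNeg and at 15.1 ± 0.611 in siSlc25a26, a fall (log2 fold change -1.08, SE 0.0798, edgeR adjusted p = 1.08e-05). With PE it stood at 101.9 ± 14.1 CPM in siNeg.PE and at 102.3 ± 3.69 in the libraries labelled siSlc25a26.PE (log2 fold change -0.0062, adjusted p = 0.969). The targeted gene therefore does not check the label of the siSlc25a26.PE libraries, and every direction below that involves them rests on that label. All 10 cardiomyocyte markers were above 3 counts, with a summed level between 21419 and 28546 CPM over the 12 libraries. The 10 fibroblast markers summed to between 8720 and 23636 CPM, so the RNA of the myocyte cultures also held fibroblast transcripts. Nppa, Nppb and Acta1, which rise in hypertrophy, were all called higher after PE in siNeg, with log2 fold changes of 4.63, 5.37 and 3.18.

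Ranked by FPKM, which scales fragments by gene length and library total, Myh7 was the highest member in every group, followed by Myh6, Myh9 and Myh10, and the libraries of these neighbours in rank did not overlap in any of the 4 groups. Myh6 and Myh7 together made up 94.5 ± 0.471% of the summed FPKM of the 10 members in siNeg. This share was 97.2 ± 0.166% in siNeg.PE, 96.7 ± 0.226% in siSlc25a26 and 97.8 ± 0.263% in the libraries labelled siSlc25a26.PE. Next came Myh11 and Myh7b, at 9.43 ± 0.176 and 3.82 ± 0.249 FPKM in siNeg. Myh11 stood above Myh7b in siNeg and siNeg.PE, whereas in siSlc25a26 and siSlc25a26.PE the libraries of the pair overlapped. The skeletal muscle isoforms were all under 1 FPKM in every library.

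**Figure D1:**
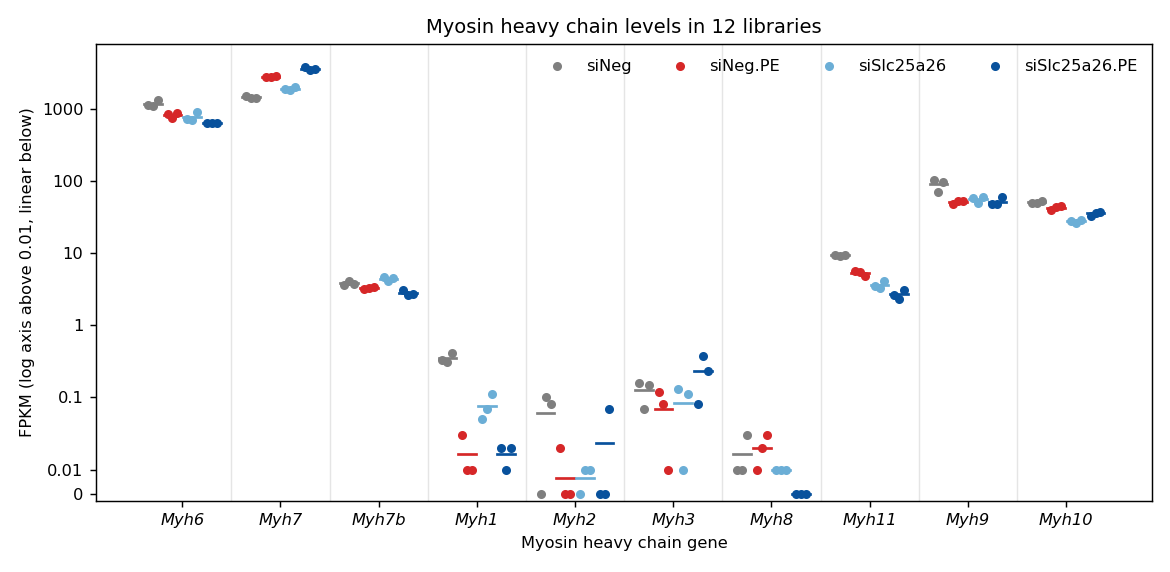
FPKM of each of the 10 heavy chain genes (log axis above 0.01, linear below) in the 12 libraries. Points are libraries, coloured by group, and bars are group means (n = 3). Myh7 and Myh6 stand highest in all 4 groups, Myh9 and Myh10 follow, and Myh1, Myh2, Myh3 and Myh8 lie under 1 FPKM.

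Calls required more than a 1.5-fold difference together with an edgeR adjusted p (quasi-likelihood test, Benjamini-Hochberg) under 0.05. After PE in siNeg, 1 member was called higher (Myh7) and 3 lower (Myh1, Myh9 and Myh11) of the 8 that passed the filter on low counts. Over all 13719 genes tested, 12.4% were called higher and 8.24% lower. After PE in the siSlc25a26 transfection, 1 member was called higher (Myh7) and 0 lower of 7 tested, against 10.1% and 10.4% of 13776 genes. For lower levels, DESeq2 and limma-voom also called 0, and 1 member (Myh7b) had an unadjusted p under 0.05. With siSlc25a26 in place of siNeg, both without PE, 0 members were called higher and 5 lower (Myh6, Myh1, Myh9, Myh10 and Myh11) of 8, against 8.92% and 7.2% of 13829 genes. DESeq2 and limma-voom called 0 higher as well, and Myh7 was the only member higher at an unadjusted p under 0.05. Under PE, 0 members were higher and 1 lower (Myh11) of 7 in the libraries labelled siSlc25a26.PE, against 7.71% and 8.1% of 13671 genes. There, 2 members (Myh7 and Myh3) were higher at an unadjusted p under 0.05, and DESeq2 called 1 (Myh3). PE in siNeg and siSlc25a26 without PE share the siNeg libraries, and each of the other comparisons likewise shares a group with its neighbour, so they are not independent.

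**Figure D2:**
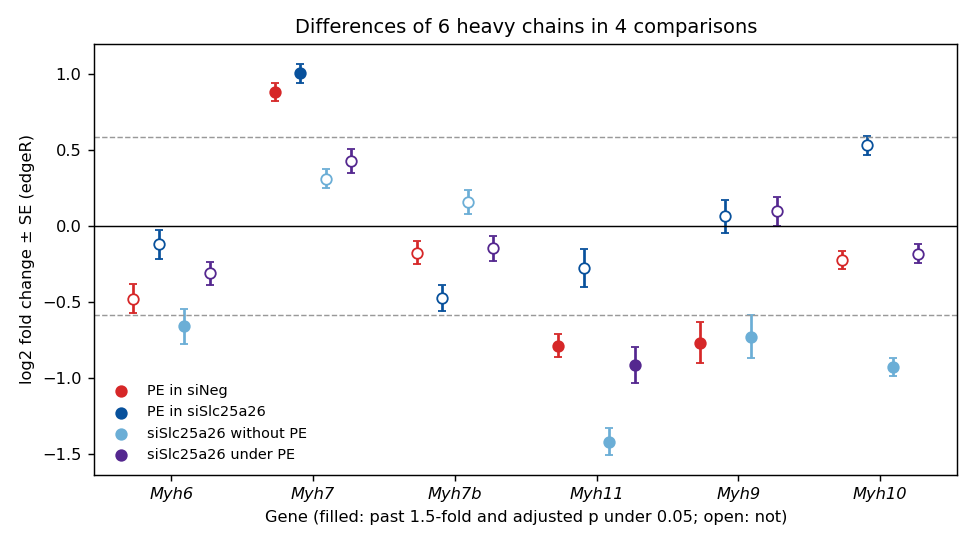
Log2 fold change ± SE from edgeR for the 6 of the family members followed here that were above 1 FPKM, in 4 comparisons of 3 against 3 libraries. Filled points were called (past the dashed 1.5-fold lines with an adjusted p under 0.05), open points were not. Myh7 lies above 0 and Myh11 below 0 in all 4 comparisons, and Myh9 lies near 0 in both comparisons that use the libraries labelled siSlc25a26.PE, where its sign turned on the FPKM scale for PE in siSlc25a26 and without siSlc25a26.PE replicate 3 for both.

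Myh7, the β heavy chain, rose after PE in both transfections. Its FPKM was 1503, 1440 and 1414 in the 3 siNeg libraries and 2751, 2744 and 2838 in siNeg.PE. In siSlc25a26 it was 1870, 1863 and 2008, and in siSlc25a26.PE 3800, 3514 and 3543. The 4 groups did not overlap, from siNeg as the lowest through siSlc25a26 and siNeg.PE to siSlc25a26.PE as the highest. In RNA from whole cultures, fewer cells of a type and less RNA per cell cannot be told apart, and this holds for every level given here. PE raised Myh7 by a log2 fold change of 0.88 (SE 0.0578, edgeR adjusted p = 2.46e-05), or 1.84-fold, in siNeg and by 1.00 (SE 0.0641, adjusted p = 3.27e-06), or 2.0-fold, in siSlc25a26. The difference between these PE effects was 0.10 with a 95% interval of -0.09 to 0.29 (adjusted p = 0.511), and its sign turned on the FPKM scale. With siSlc25a26 against siNeg, Myh7 was higher by 0.31 without PE (adjusted p = 0.00379) and by 0.42 under PE (adjusted p = 0.00272), below the 1.5-fold threshold both times.

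Myh6, the α heavy chain, was highest in siNeg, the group in which Myh7 was lowest. Its FPKM was 1130, 1094 and 1342 in siNeg, 848, 749 and 890 in siNeg.PE, 721, 705 and 915 in siSlc25a26, and 637, 638 and 633 in siSlc25a26.PE. The siNeg libraries were above all others, siNeg.PE and siSlc25a26 overlapped, and the siSlc25a26.PE libraries were the lowest on this scale, whereas in CPM they overlapped siSlc25a26. In the test on counts, Myh6 fell with siSlc25a26 without PE (log2 fold change -0.66, SE 0.116, adjusted p = 0.00183). After PE in siNeg its log2 fold change was -0.48 (SE 0.0948, adjusted p = 0.0041), a 1.39-fold difference that stayed inside the fold threshold. Under PE, the libraries labelled siSlc25a26.PE were lower by 0.31 on the log2 scale (value -0.31, adjusted p = 0.0116), also inside it. For PE in siSlc25a26 the value was -0.12 with an interval of -0.34 to 0.10 (adjusted p = 0.316). Without siSlc25a26 replicate 3, the highest of its group, this value was 0.016.

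Expressed as a share of the cardiac pair, Myh7 took 55.1 ± 3.26% of the Myh6 plus Myh7 FPKM in siNeg, with 57.1, 56.8 and 51.3% in the 3 libraries. The share was 77.0 ± 1.33% in siNeg.PE (76.4, 78.6 and 76.1%) and 71.1 ± 2.13% in siSlc25a26 (72.2, 72.6 and 68.7%). It reached 85.0 ± 0.528% in siSlc25a26.PE (85.6, 84.6 and 84.8%). No library of any group entered the range of another. As a ratio, Myh7 per Myh6 was 1.23 ± 0.156 in siNeg, 2.48 ± 0.247 in siSlc25a26, 3.37 ± 0.261 in siNeg.PE and 5.69 ± 0.240 in siSlc25a26.PE.

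The sum of the pair also differed between groups. Myh6 plus Myh7 stood at 2641 ± 111 FPKM in siNeg and 2694 ± 199 in siSlc25a26, whose libraries overlapped, so that the share differed between these groups at similar summed levels. With PE the sum was 3606 ± 118 FPKM in siNeg.PE and 4255 ± 158 in siSlc25a26.PE. These shares and sums are descriptions and carry no test. The estimated counts of Myh6, Myh7 and Myh7b were not whole numbers in any of the 12 libraries. Their sum over Myh6 and Myh7 was whole in 0 of 12 libraries too, as was the sum over Myh6, Myh7, Myh7b and the 4 skeletal muscle members. How the counting assigned reads between Myh6 and Myh7 was not tested.

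**Figure D3:**
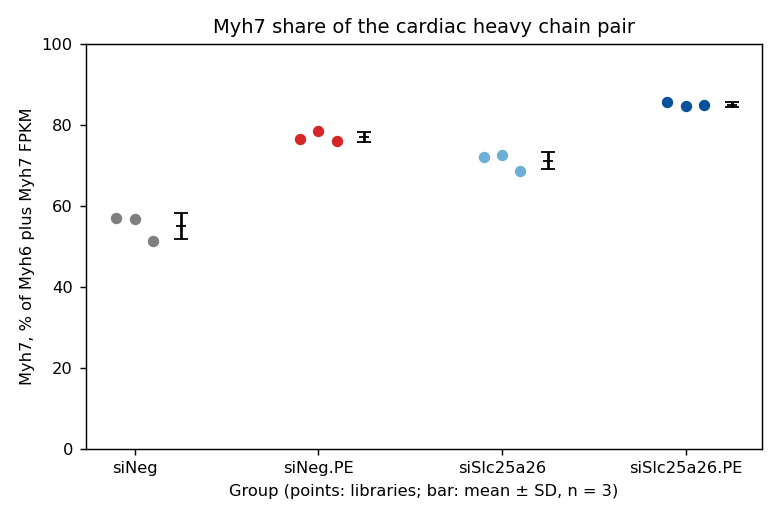
Myh7 FPKM as a percentage of Myh6 plus Myh7 FPKM in each library (points) with the mean ± SD of each group (bars, n = 3). The groups do not overlap, and their means run from 55.1% in siNeg through 71.1% in siSlc25a26 and 77.0% in siNeg.PE to 85.0% in siSlc25a26.PE.

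Myh7b, an ancient slow heavy chain gene that hosts rno-miR-499-5p, did not follow Myh7. Its FPKM was 3.60, 4.09 and 3.77 in siNeg, 3.20, 3.28 and 3.37 in siNeg.PE, 4.62, 4.14 and 4.49 in siSlc25a26, and 3.05, 2.67 and 2.71 in siSlc25a26.PE. On this scale the siSlc25a26 libraries were the highest and the siSlc25a26.PE libraries the lowest, without overlap, whereas in CPM siNeg overlapped siSlc25a26 and siNeg.PE overlapped siSlc25a26.PE. No comparison called it. The largest difference was PE in siSlc25a26, at a log2 fold change of -0.48 (SE 0.0845, adjusted p = 0.00144), inside the fold threshold. The other values were -0.18 for PE in siNeg (adjusted p = 0.0831), 0.16 for siSlc25a26 without PE (adjusted p = 0.148) and -0.15 under PE (adjusted p = 0.199).

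Among the skeletal muscle isoforms, Myh1 (fast type IIx) carried the largest fold difference of the family, at very low levels. It had 41.9, 44.3 and 65.3 estimated counts in the siNeg libraries, 3, 1 and 2 in siNeg.PE, 5, 12.8 and 17.9 in siSlc25a26, and 2.44, 1.41 and 3 in siSlc25a26.PE. Only the siNeg libraries had more than 18 counts. The siNeg group exceeded siNeg.PE by 23.6-fold (95% exact counting interval 10.6 to 65.3) and siSlc25a26 by 4.58-fold (3.17 to 6.79). In turn siSlc25a26 exceeded siSlc25a26.PE by 5.21-fold (2.17 to 15.1). These intervals cover counting error only and treat rounded estimates, summed over a group, as observed counts. The estimated counts of Myh1 were not whole in 7 of 12 libraries, all siNeg libraries among them. How the counting assigned reads to Myh1 was not tested. In edgeR, Myh1 fell after PE in siNeg (log2 fold change -4.49, adjusted p = 0.000104) and with siSlc25a26 without PE (-2.21, adjusted p = 0.00179), and it was left out by the low-count filter in both comparisons with siSlc25a26.PE. On log2(FPKM + 1), where values this low are compressed, the differences were -0.41 and -0.33 and neither was called, and on log2(FPKM + 0.1) they were -1.95 and -1.36 and both were.

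Myh3, the embryonic isoform, had between 2 and 61.6 counts per library. It had 26.1, 11 and 24.0 counts in siNeg, 19, 13 and 2 in siNeg.PE, 22, 2 and 19 in siSlc25a26, and 12.6, 61.6 and 38 in siSlc25a26.PE. The highest libraries belong to siSlc25a26.PE, whose lowest library overlaps the other 3 groups. Its log2 fold change under PE was 1.70 (SE 0.669, adjusted p = 0.0721) and that of PE in siSlc25a26 was 1.60 (SE 0.680, adjusted p = 0.0768), neither past the test. For PE in siNeg and for siSlc25a26 without PE it was -0.76 (adjusted p = 0.309) and -0.64 (adjusted p = 0.418).

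Myh2 (fast type IIa) and Myh8 (perinatal) were too low to test in any comparison. Myh2 had at most 8.70 counts and was at 3 counts or fewer in 9 of 12 libraries, 6 of them at 0. Myh8 had at most 4 counts, was at 3 or fewer in 10 libraries and was at 0 in all 3 siSlc25a26.PE libraries. A count of 0 allows up to 3 counts, which corresponds to between 0.0992 and 0.120 CPM in these libraries. The markers of skeletal muscle were also low, with a summed level of the 8 measured genes between 1.03 and 2.33 CPM and 3 of them at 3 counts or fewer in every library.

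Myh11, the smooth muscle heavy chain, fell in 3 of the 4 comparisons. Its FPKM was 9.60, 9.25 and 9.45 in siNeg, 5.6, 5.48 and 4.86 in siNeg.PE, 3.57, 3.29 and 4.14 in siSlc25a26, and 2.61, 2.34 and 3.11 in siSlc25a26.PE. The groups did not overlap on this scale, whereas in CPM siSlc25a26 (20.2 to 25.8) overlapped siSlc25a26.PE (16.1 to 21.3). The log2 fold change was -0.79 (SE 0.0731, adjusted p = 0.000118) for PE in siNeg and -1.42 (SE 0.0884, adjusted p = 3.37e-06) for siSlc25a26 without PE. Under PE it was -0.92 (SE 0.119, adjusted p = 0.000428) in the libraries labelled siSlc25a26.PE. For PE in siSlc25a26 it was -0.28 with an interval of -0.56 to 0.01 (adjusted p = 0.0924). All 12 estimated counts of Myh11, and of Myh10, were whole numbers.

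Myh10, non-muscle heavy chain IIB, had FPKM values of 49.7, 50.5 and 53.6 in siNeg, 39.6, 43.6 and 44.7 in siNeg.PE, 28.4, 26.3 and 29.2 in siSlc25a26, and 33.3, 36.0 and 38.0 in siSlc25a26.PE. The siNeg libraries were the highest and the siSlc25a26 libraries the lowest, with no overlap between groups. Myh10 fell with siSlc25a26 without PE (log2 fold change -0.93, SE 0.0590, adjusted p = 3.83e-06). The PE effect had opposite signs in the 2 transfections, at -0.22 (SE 0.0596, adjusted p = 0.0153) in siNeg and 0.53 (SE 0.0635, adjusted p = 0.000149) in siSlc25a26, each inside the fold threshold. The difference between them, tested with all 12 libraries, was 0.73 (SE 0.0867, adjusted p = 0.000433). Under PE, the libraries labelled siSlc25a26.PE differed from siNeg.PE by -0.18 (adjusted p = 0.0523).

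Myh9, non-muscle heavy chain IIA, had FPKM values of 103, 69.8 and 96.8 in siNeg, 48.0, 53.5 and 52.6 in siNeg.PE, 59.1, 49.1 and 60.9 in siSlc25a26, and 48.1, 48.1 and 60.5 in siSlc25a26.PE. The siNeg libraries were above all others, and the remaining 3 groups overlapped. Myh9 fell after PE in siNeg (log2 fold change -0.77, SE 0.134, adjusted p = 0.00227) and with siSlc25a26 without PE (-0.73, SE 0.140, adjusted p = 0.00297). For PE in siSlc25a26 its value was 0.06 with an interval of -0.18 to 0.31 (adjusted p = 0.653), which became -0.11 on the FPKM scale. The difference between the PE effects was 0.81 (SE 0.190, adjusted p = 0.0183). This call was lost without siSlc25a26 replicate 2 (adjusted p = 0.0511) and on log2(FPKM + 0.1) (adjusted p = 0.0654). These were the only 2 members, Myh9 and Myh10, of 8 tested whose PE effect was called different between transfections, both higher in siSlc25a26, against 2.16% of 14097 genes called higher and 3.34% lower. The test called 0 members lower, as did DESeq2 and limma-voom. At an unadjusted p under 0.05, 6 members were higher, Myh9 and Myh10 among them, and Myh7b was the only member lower. For Myh6 the difference was 0.33 with an interval of 0.01 to 0.66 (edgeR adjusted p = 0.177).

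The tables list Myh9 under 2 entries, and the second, Myh9l1, carries the identifier that RefSeq gives to Myh9. The estimated counts of neither entry were whole in any library, while their sum was whole in all 12 within 0.005 counts, so the reads of the pair were divided between them. In siNeg, Myh9 had 20435, 13067 and 18800 counts and Myh9l1 had 3600, 7049 and 3423, which gave sums of 24035, 20116 and 22223. Replicate 2 of siNeg placed 35.0% of the sum in Myh9l1, against 15.0% and 15.4% in the other replicates. The coefficient of variation in siNeg was 19.9% for Myh9, 46.3% for Myh9l1 and 6.35% for the sum.

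With both entries summed, a step added after the data were seen, Myh9 stood at 819 ± 52.0 CPM in siNeg, 498 ± 23.7 in siNeg.PE, 554 ± 35.7 in siSlc25a26 and 607 ± 32.9 in siSlc25a26.PE. The sum fell after PE in siNeg (log2 fold change -0.73, SE 0.0634, adjusted p = 8.31e-05) and with siSlc25a26 without PE (-0.59, SE 0.0667, adjusted p = 0.000153). The difference between the PE effects was 0.85 (SE 0.0938, adjusted p = 0.000278). Under PE the sum was higher by 0.28 (adjusted p = 0.0130) in the libraries labelled siSlc25a26.PE, inside the fold threshold. Taken alone, Myh9l1 was called higher there (0.75, adjusted p = 0.00738) and Myh9 was not (0.09, adjusted p = 0.454).

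**Figure D4:**
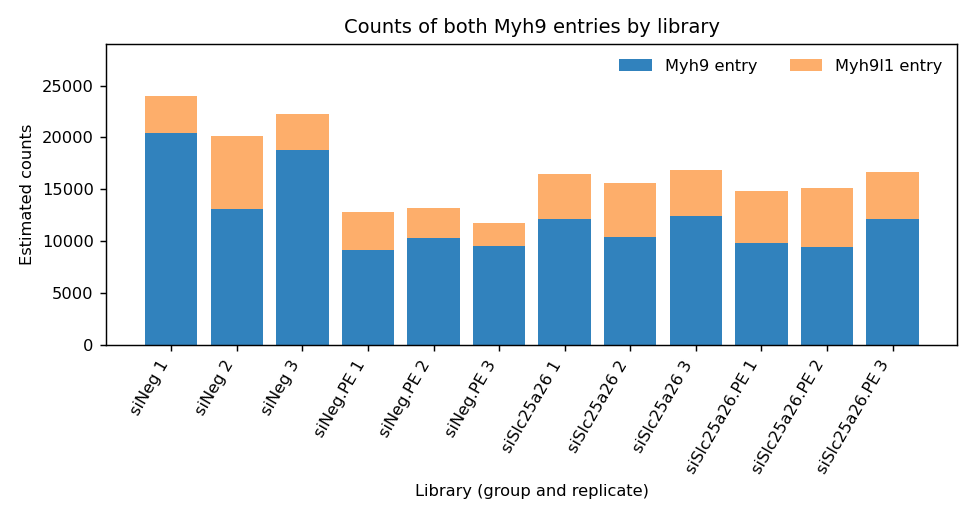
Estimated counts of the Myh9 entry (blue) and the Myh9l1 entry (orange), stacked, in each of the 12 libraries. The sum is similar among replicates of a group while the division differs, most in siNeg, where Myh9l1 holds 15.0, 35.0 and 15.4% of the sum.

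The summed fibroblast, smooth muscle and macrophage markers were lower in siNeg.PE and in siSlc25a26 than in siNeg, as were Myh9, Myh10 and Myh11. From siSlc25a26 to siSlc25a26.PE the fibroblast sum was lower and Myh10 higher, while Myh11 overlapped in CPM. The shares of all genes called in each comparison are those given above with the member calls. The 10 fibroblast markers, among them the collagen genes Col1a1 and Col3a1, summed to 22306 ± 1161 CPM in siNeg, 11929 ± 245 in siNeg.PE, 13203 ± 768 in siSlc25a26 and 9019 ± 410 in siSlc25a26.PE. Col1a1 and Col3a1 weigh most in this sum, with up to 392788 and 175499 counts in a library, against at most 1450 for Tcf21. In siNeg 6 of the 10 were called lower after PE and 0 higher by edgeR (2 higher at an unadjusted p under 0.05), led by Col3a1 (-1.26), Dpt (-1.07) and Col1a1 (-0.94). With siSlc25a26 without PE, 7 of 10 were called lower and 0 higher (1 at an unadjusted p under 0.05), led by Dpt (-1.39), Thy1 (-1.36) and Postn (-0.96). Under PE, 5 were called lower and 1, Tcf21 (0.61), higher in the libraries labelled siSlc25a26.PE. The fall there was led by Postn (-1.35), Dpt (-1.26) and Thy1 (-0.89). There Myh11 was called lower (-0.92), with Myh9 at 0.09 and Myh10 at -0.18. After PE in siSlc25a26, Dpt (-0.93) and Col3a1 (-0.73) fell and 0 rose (1 higher at an unadjusted p under 0.05). In that comparison Myh10 was at 0.53, Myh9 at 0.06 and Myh11 at -0.28. The 9 smooth muscle markers summed to 3344 ± 135 CPM in siNeg, 2010 ± 223 in siNeg.PE, 1856 ± 142 in siSlc25a26 and 1965 ± 50.0 in siSlc25a26.PE. Of these, 5 fell and 2 rose after PE in siNeg, with Cnn1 (1.58), Lmod1 (-1.43) and Tagln (-1.29) changing most, and 5 fell and 0 rose with siSlc25a26 without PE (1 higher at an unadjusted p under 0.05), led by Cnn1 (-1.18), Tagln (-1.12) and Acta2 (-0.99). PE in siSlc25a26 called 3 of the 9 higher and 3 lower, and under PE 1 was called higher and 1 lower. The summed macrophage markers were at 28.8 ± 2.87 CPM in siNeg and between 12.7 and 16.9 CPM in the libraries of the other 3 groups, and the endothelial markers were between 26.5 and 33.7 CPM throughout. The part of these cell types in the levels of Myh9, Myh10 and Myh11 was not tested. The cardiomyocyte markers summed to 22262 ± 733 CPM in siNeg and 22751 ± 936 in siSlc25a26, and edgeR called 0 of 10 in that comparison, where Myh6 fell, with 1 higher and 3 lower at an unadjusted p under 0.05.

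**Figure D5:**
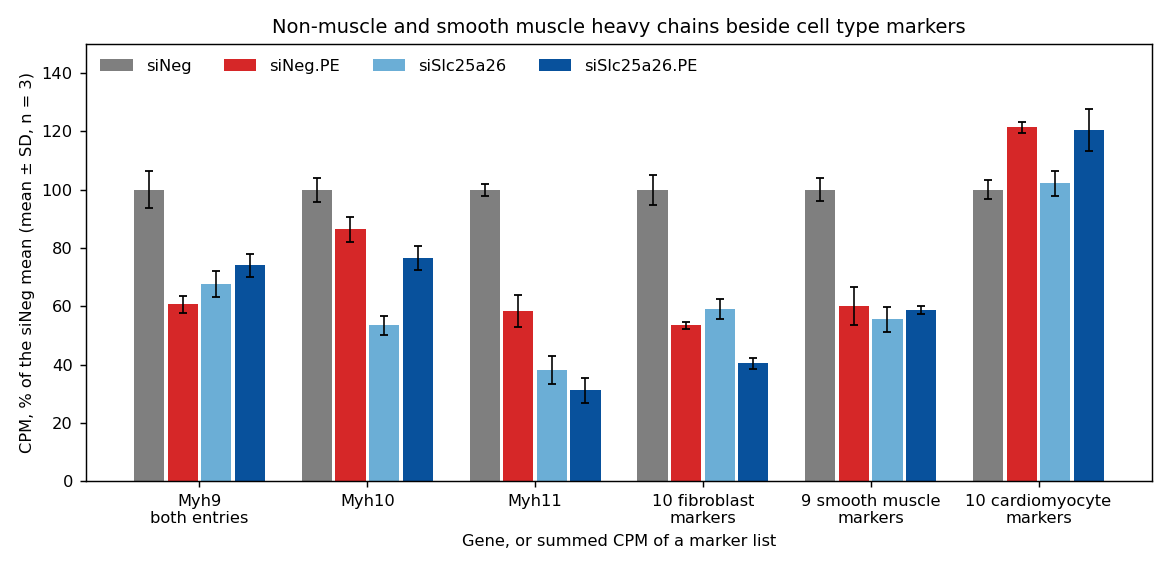
CPM of Myh9 (both entries summed), Myh10 and Myh11 and summed CPM of 3 marker lists, as a percentage of the siNeg mean (bars are means, error bars SD, n = 3). Fibroblast markers stand at 53.5, 59.2 and 40.4% of siNeg in siNeg.PE, siSlc25a26 and siSlc25a26.PE, Myh11 at 58.5, 38.1 and 31.2%, Myh10 at 86.4, 53.5 and 76.6%, and cardiomyocyte markers at 121, 102 and 120%. The collagen genes Col1a1 and Col3a1 weigh most in the fibroblast sum.

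Partners of the heavy chains in the thick filament and M-band moved in both directions. Of 10 tested after PE in siNeg, 2 were called higher and 2 lower, against 12.4% and 8.24% of all genes. Mybpc2, the fast skeletal myosin-binding protein C, was at a log2 fold change of 3.28, the M-band gene Myom3 at -1.48 and titin (Ttn) at 0.97. After PE in siSlc25a26, 3 rose and 2 fell, against 10.1% and 10.4% of all genes. The same 3 genes led (Mybpc2 3.27, Myom3 -1.97, Ttn 0.91). With siSlc25a26 without PE, 3 rose and 1 fell, against 8.92% and 7.2% of all genes. Those with the largest changes were Mybpc2 (1.38), Mybphl (1.05) and Myom2 (-0.72). Mybphl had at most 43 counts in any library. Under PE, Mybpc2 (1.36) and Mybphl (0.99) rose in the libraries labelled siSlc25a26.PE and 0 fell, with 1 lower at an unadjusted p under 0.05. Of all genes there, 7.71% were called higher and 8.1% lower. The median log2 fold change of the list lay between -0.06 and 0.22 over these 4 comparisons, and that of all tested genes between -0.0036 and 0.0145.

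Myosin light chains, the small subunits that bind the heavy chain neck, divided by comparison. After PE in siNeg, 3 of 9 rose and 0 fell, against 12.4% and 8.24% of all genes, and 2 were lower at an unadjusted p under 0.05. Those called were Myl1 (2.34), the atrial essential chain Myl4 (1.31) and the ventricular regulatory chain Myl2 (0.90). Myl1 had at most 89 counts in any library. After PE in siSlc25a26, 7 rose and 2 fell, against 10.1% and 10.4% of all genes. These were led by Myl1 (3.29), Myl4 (1.5) and Myl9 (1.36), the regulatory chain of smooth and non-muscle myosin. With siSlc25a26 without PE, 0 rose and 4 fell, against 8.92% and 7.2% of all genes. The fall was led by Myl9 (-0.96), Myl4 (-0.91) and Myl6 (-0.65), and 1 light chain was higher at an unadjusted p under 0.05. Under PE, Myl7 (-0.89) and Myl4 (-0.72) fell and 0 rose, against 8.1% and 7.71% of all genes, with 1 higher at an unadjusted p under 0.05. The PE effects on Myl9 (difference 0.76, adjusted p = 0.00218) and Myl12a (0.59, adjusted p = 0.00392) differed between transfections, 2 of 9 called higher against 2.16% of all genes and 0 lower against 3.34%. The related chain Myl12b had the opposite sign (-0.17, adjusted p = 0.154) and was the only light chain lower at an unadjusted p under 0.05.

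Of 9 genes for the folding and turnover of myosin, 2 rose after PE in siNeg, the chaperone Hsp90aa1 (1.04) and the ubiquitin ligase Trim55 (0.59), against 12.4% of all genes. After PE in siSlc25a26, Trim55 rose (0.73) and the ubiquitin ligases Fbxo32 (-1.58) and Trim54 (-0.79) fell, against 10.1% and 10.4% of all genes. Hsp90aa1 rose with siSlc25a26 without PE (0.60), where 8.92% of all genes were called higher, and Fbxo32 fell under PE (-0.73), where 8.1% were called lower.

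The regulators known to act on the Myh6 and Myh7 promoters or on thyroid hormone supply held 23 genes, of which 20 were tested. Dio2 and Dio3, listed for hormone supply, were left out by the low-count filter in every comparison. After PE in siNeg, 2 rose and 2 fell, against 12.4% and 8.24% of all genes. After PE in siSlc25a26, 4 rose and 4 fell, against 10.1% and 10.4% of all genes. Rxra, the retinoid X receptor that pairs with thyroid hormone receptors, fell in both (-0.89 and -1.23). Tead4, a factor that binds the muscle CAT element of such promoters, rose in both (0.77 and 0.95). Pura, a single-strand DNA-binding protein, rose in siNeg (0.64). Thrb, a thyroid hormone receptor, fell after PE in siSlc25a26 (-0.95) and rose with siSlc25a26 without PE (0.62). It was the only regulator called in the latter, where 8.92% of all genes were called higher and 7.2% lower. Under PE edgeR called 0 of 20 in the libraries labelled siSlc25a26.PE, against 7.71% of all genes called higher and 8.1% lower. At an unadjusted p under 0.05, 6 regulators were higher and 4 lower there.

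The genes whose log2 CPM followed the cardiac members most closely over the 12 libraries were found among 12755 genes with a mean of at least 1 CPM. For Myh7 they were Bmp7 (Pearson r = 0.995), Slc16a1 (0.995) and Spsb4 (0.994). Bmp7, a secreted growth factor, had mean CPM of 42.8 in siNeg, 113.9 in siNeg.PE, 58.2 in siSlc25a26 and 171.2 in siSlc25a26.PE, the order of groups seen for Myh7. For Myh6 they were Gga3 (0.960), Lamb1 (0.955) and Wdr19 (0.948), and for Myh7b Mxd1 (0.955), Ccnjl (0.953) and Radil (0.951). The points share the same libraries and the same 4 groups, so these values are descriptions and carry no test.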

How the data were processed

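RNA-seq tables of 12 NRVM libraries were used, with groups and replicate numbers taken from the sample labels. The authors deposited estimated counts per gene, of which 20.8 to 21.9% per library were not whole, and FPKM values. The submitters' processing notes name HISAT, Bowtie2 and Rnor_6.0. The counting program and strandedness are not given in the sources used here. The study's methods give other transfection and PE times than the labels, and describe another siRNA. Estimated counts were rounded and tested over all genes with edgeR 4.0.16 in R 4.3.3 (TMM, filterByExpr, quasi-likelihood, Benjamini-Hochberg), with the 6 libraries of a comparison in each fit and all 12 for the difference between PE effects. SEs were taken from the F statistic. CPM used TMM factors over all 12 libraries, and shares used FPKM. Total counts of 24770972 to 28709049 per library put 3 counts at 0.0992 to 0.120 CPM.

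Members and gene lists were chosen with earlier results of these data known. Genes named were all members, Slc25a26, up to 3 genes per list with the largest change among those called, and the 3 genes closest in pattern to Myh6, Myh7 and Myh7b (log2 CPM, prior count 2). Alternatives were DESeq2 1.42.0, limma-voom (limma 3.58.1), limma on log2(FPKM + 1) and log2(FPKM + 0.1), other size factors, filters and thresholds, 1 fit of all libraries, a replicate block, summed Myh9 entries, other denominators of the shares, and each library left out. Fits were tested on simulated counts. RefSeq GRCr8 matched 16962 of 18469 identifiers and 9 of 10 members (not the Myh9 row), and its microRNA table supplied all 3 sequences. Replicate libraries differed beyond sampling noise (chi-square per gene of at least 5.52), and each was counted as 1 sample. That difference does not show whether the replicates came from separate cultures.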

Additional observations from a re-analysis of the deposited data

Results flagged for a closer look

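The PE effect on both non-muscle members, Myh9 and Myh10, differed between transfections by a test of the difference itself. Myh14, a class II heavy chain outside the 10 members, was not called for this difference (0.08, edgeR adjusted p = 0.577). For Myh9 the effect in siSlc25a26 exceeded that in siNeg by 0.81 on the log2 scale (SE 0.190, edgeR adjusted p = 0.0183), a call lost without siSlc25a26 replicate 2 (adjusted p = 0.0511) and on log2(FPKM + 0.1) (adjusted p = 0.0654), and for Myh10 by 0.73 (SE 0.0867, adjusted p = 0.000433). Both values involve the libraries labelled siSlc25a26.PE, in which Slc25a26 was not lower than in siNeg.PE. Beside them, the 9 smooth muscle markers held 2 genes called the same way, Cnn1 (1.75, adjusted p = 6.75e-05) and Acta2 (0.88, adjusted p = 0.00233), with 8 of the 9 higher and 0 lower at an unadjusted p under 0.05. Of 6 macrophage markers tested, C1qa (1.05, adjusted p = 0.0464) and Csf1r (0.82, adjusted p = 0.0123) were called the same way. Over all 14097 genes tested for this difference, 2.16% were called higher and 3.34% lower. The 10 fibroblast markers held 0 called by edgeR in either direction, with 4 higher and 1 lower at an unadjusted p under 0.05. Of 10 cardiomyocyte markers, 0 were called higher and 1 lower, with 3 higher and 3 lower at an unadjusted p under 0.05. Of 7 endothelial markers, 0 were called in either direction, with 1 higher and 0 lower at an unadjusted p under 0.05. The part of these markers in the result was not tested.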

How the results depend on the processing

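Log2 fold changes of members kept their direction and their side of the test in most settings, with 620 of the values unchanged in call, 8 now past the test, 4 no longer past it and 8 reversed. The setting with no fold threshold, in which more members were called, is left out of these numbers and given below. On log2(FPKM + 1), Myh1 was no longer called for PE in siNeg (-0.41) and for siSlc25a26 without PE (-0.33). The reversed values were all small. For PE in siSlc25a26, Myh9 was -0.11 on both FPKM scales, -0.053 without siSlc25a26.PE replicate 3 and -0.034 without siSlc25a26 replicate 2, and Myh6 was 0.016 without siSlc25a26 replicate 3. Under PE, Myh9 was -0.0078 without siSlc25a26.PE replicate 3, and the difference between PE effects for Myh7 was -0.016 on both FPKM scales. On log2(FPKM + 1) and log2(FPKM + 0.1), the median of all genes moved to -0.13 and -0.17 for PE in siSlc25a26 and to -0.11 and -0.14 for the difference. With no fold threshold, members called numbered 5 lower for PE in siNeg, 2 higher and 1 lower for PE in siSlc25a26, 1 higher for siSlc25a26 without PE, and 1 higher and 2 lower under PE. DESeq2 called 2 members higher for PE in siSlc25a26 and 1 under PE, where it added Myh3. No filter, all 12 libraries in 1 fit and log2(FPKM + 0.1) each called 1 lower for PE in siSlc25a26. Leaving out single libraries gave 1 to 2 higher and 0 to 1 lower for PE in siSlc25a26, 0 to 1 higher under PE, and 1 to 3 for the difference between PE effects. The difference for Myh9 was no longer called without siSlc25a26 replicate 2 (0.72, adjusted p = 0.0511) or on log2(FPKM + 0.1) (0.68, adjusted p = 0.0654), and that for Myh11 was called without siSlc25a26 replicate 3 (0.60, adjusted p = 0.0281). Over all single libraries left out, Myh6 ranged from -0.20 to 0.016 and Myh9 from -0.053 to 0.13 for PE in siSlc25a26, and Myh9 from -0.0078 to 0.16 under PE. The causes were not tested.

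The Myh7 share with all 10 members as denominator was 74.9% in siNeg.PE, 68.8% in siSlc25a26 and 83.2% in siSlc25a26.PE. The Myh6 plus Myh7 share, in the order siNeg, siNeg.PE, siSlc25a26 and siSlc25a26.PE, was 93.7, 96.7, 96.2 and 97.4% from counts not scaled by length, 99.5, 99.8, 99.7 and 99.9% without Myh9 and Myh10, and 93.6, 96.8, 95.9 and 97.3% with the Myh9 entries summed. With the replicate block, members called numbered 1 higher and 3 lower for PE in siNeg, 1 and 0 for PE in siSlc25a26, 0 and 5 for siSlc25a26 without PE, 0 and 1 under PE, and 2 and 0 for the difference, as without it. The block did move some edgeR adjusted p-values under 0.05, each inside the fold threshold. These were Myh7b for PE in siNeg (0.0343), Myh10 under PE (0.0104), and Myh11 for PE in siSlc25a26 (0.0238) and for the difference (0.0457). Deviations of same-numbered libraries correlated between -0.0865 and 0.268, and the main fits did not pair the samples by number. Every library correlated best with its own number for PE in siNeg and under PE, and not in the other comparisons. Depth limits Myh2 and Myh8, whose levels lay at or near 3 counts.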
